A study of Mus musculus with 19 samples.

Results

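The genes described here are 10 germline genes known to respond to loss of DNA methylation, Tex19.1, Dazl, Mael, Sycp3, Asz1, Tex101, Slc25a31, Hormad1, Stk31 and Rhox5. They were taken by symbol from the tables of RNA-seq reads per RefSeq transcript, which held 23337 gene symbols. All 10 symbols were found, each with 1 transcript, in all 11 RNA-seq libraries. The study compared mouse cystic embryoid bodies (EBs) with the extra-embryonic yolk sac endoderm (ysE) and fetal liver, and the question followed here is whether ysE, whose genome is weakly methylated, expresses these genes. RNA was sequenced from tissues of FVB embryos and from cystic EBs (4 libraries). The FVB tissues were ysE at E12.5 (1 library) and E9.25 (2 libraries), mesoderm of the visceral yolk sac (VYS) at E9.25 (2 libraries) and fetal liver at E12.5 (2 libraries). Each tissue sample pooled a whole litter, and the endoderm and the mesoderm were separated by hand after enzyme treatment, with blood vessels and basement membrane kept in the mesoderm sample. The cystic EBs were grown without the cytokine LIF for 10 or 15 days from 2 C57Bl/6x129 ES cell clones, A9 (XY) and JN (XX), with 1 library per clone and day. The E12.5 ysE library was made without strand information, the E9.25 libraries and the JN libraries with the dUTP method, and the liver and A9 libraries with ScriptSeq, so that a difference between these sets of samples and a difference between protocols cannot be told apart. DNA methylation was measured by whole genome bisulphite sequencing (WGBS) in E12.5 ysE, E12.5 liver and day 15 cystic EBs, each from both reciprocal crosses of CAST and FVB (CxF and FxC, mother first), and so in other animals and ES cell clones than the RNA. H3K4me3, a histone mark of active or poised promoters, was mapped by ChIP-seq in 1 sample of whole E12.5 VYS of FVB embryos, pooled from 2 litters. Whole VYS holds endoderm and mesoderm together. The labels fitted the markers: 8 genes of ysE, among them Afp, Ttr and Apoa1, summed to 44616 RPKM (defined with the first values) in E12.5 ysE and 11149 and 12461 RPKM in E9.25 ysE, against 1223 to 3139 RPKM in the mesoderm and liver libraries and 165 to 1410 RPKM in cystic EBs. Values of cell type markers, here and below, add all RefSeq transcripts of a gene. Reads shared by several transcripts of a marker can therefore count more than once.

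Germ cells use a set of genes for meiosis, for small RNA defence against transposons and for gamete function that other cells do not need. Many of these genes start in promoters rich in CpG dinucleotides, and unlike most CpG-rich promoters these carry DNA methylation in somatic cells, where the genes are silent. When methylation is lost, in mutants of DNA methyltransferases or in primordial germ cells, several of them become transcribed. Tex19.1 and Rhox5 are also known to be transcribed in extra-embryonic tissues, which keep lower methylation than the embryo.

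The sequences of the promoters, from 250 bases before to 50 bases after each RefSeq start (build GRCm38.p6, which is mm10), show how these genes differ in CpG content. The least CpG-rich of the 9 autosomal genes was Sycp3, with 15 CpGs in 300 bases, and the richest was Stk31, with 29. Dazl had 28, Mael and Hormad1 24 each, Slc25a31 22, Tex101 19, Asz1 17 and Tex19.1 16. The X-linked Rhox5 stood apart with 5. Of all 27025 RefSeq promoters, 35.2% held at least 15 CpGs and 61.7% held at least 5. The promoters printed are the 2 genes that led expression in ysE (Tex19.1, chr11:121145893-121146192, plus strand, and Rhox5, chrX:37754358-37754657, plus strand), 2 that had no reads in E12.5 ysE (Mael, chr1:166238695-166238994, minus strand, and Hormad1, chr3:95559427-95559726, plus strand) and Dazl (chr17:50293571-50293870, minus strand), the other autosomal gene with an H3K4me3 peak near its start. Each is written 5′ to 3′ along the gene's own strand, with every CpG in capitals.
Tex19.1: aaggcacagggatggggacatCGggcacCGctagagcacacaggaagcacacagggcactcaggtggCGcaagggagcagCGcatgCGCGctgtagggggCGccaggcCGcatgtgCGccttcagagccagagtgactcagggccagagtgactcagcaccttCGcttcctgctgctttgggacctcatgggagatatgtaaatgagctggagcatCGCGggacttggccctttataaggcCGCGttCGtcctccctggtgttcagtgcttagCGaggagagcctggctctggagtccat
Rhox5: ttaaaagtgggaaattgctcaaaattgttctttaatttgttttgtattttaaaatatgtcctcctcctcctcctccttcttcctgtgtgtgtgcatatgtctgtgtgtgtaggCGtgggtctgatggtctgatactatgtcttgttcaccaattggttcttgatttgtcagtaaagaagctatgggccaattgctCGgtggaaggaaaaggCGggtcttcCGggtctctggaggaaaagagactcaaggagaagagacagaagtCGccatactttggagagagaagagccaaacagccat
Mael: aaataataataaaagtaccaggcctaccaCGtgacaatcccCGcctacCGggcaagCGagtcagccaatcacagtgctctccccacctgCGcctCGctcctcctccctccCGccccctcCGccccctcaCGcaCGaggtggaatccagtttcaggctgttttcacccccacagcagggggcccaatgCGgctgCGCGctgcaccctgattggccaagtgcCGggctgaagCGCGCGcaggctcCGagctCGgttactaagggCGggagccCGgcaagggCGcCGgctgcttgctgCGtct
Hormad1: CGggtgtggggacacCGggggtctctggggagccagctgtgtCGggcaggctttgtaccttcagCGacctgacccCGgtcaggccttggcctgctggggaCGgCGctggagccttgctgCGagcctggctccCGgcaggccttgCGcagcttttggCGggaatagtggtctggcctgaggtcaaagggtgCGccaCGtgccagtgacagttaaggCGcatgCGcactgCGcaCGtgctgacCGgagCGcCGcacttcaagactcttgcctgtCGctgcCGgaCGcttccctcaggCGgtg
Dazl: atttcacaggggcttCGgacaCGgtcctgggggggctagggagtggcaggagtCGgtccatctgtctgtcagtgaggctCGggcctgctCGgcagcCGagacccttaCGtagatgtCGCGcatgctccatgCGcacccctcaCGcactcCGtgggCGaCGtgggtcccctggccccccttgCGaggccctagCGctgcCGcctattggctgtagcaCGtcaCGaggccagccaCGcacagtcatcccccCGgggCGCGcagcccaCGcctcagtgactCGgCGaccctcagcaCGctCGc

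CpGs lay across the whole window in Mael, Hormad1 and Dazl, while 4 of the 5 CpGs of Rhox5 lay near its start. A pair of short motifs were searched on both strands of all 10 promoters, CACGTG, an E-box bound by factors such as the MAX and MGA pair, and GCGGGAA, of the kind bound by E2F6. Both hold a CpG, and no match of the one overlapped a match of the other. CACGTG was found in 5 of the 10 promoters, against 7.24% of all promoters and 11.5% of the 9514 promoters with at least 15 CpGs. Counted in bases from the start, it lay at -223 in Mael, -93 in Slc25a31 and -55 in Stk31, and at 2 places each in Sycp3 (-64 and -43) and Hormad1 (-57 and -20). GCGGGAA was found in 3 promoters, Sycp3, Hormad1 and, on the other strand, Slc25a31, against 4.66% of all promoters and 10.4% of the CpG-rich ones.

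Tex19.1 and Rhox5 were expressed well above the others in ysE, and another gene, Sycp3, passed 1 RPKM (reads scaled to the transcript's length in kilobases and to the library's size) in E12.5 ysE. The other 7 genes stayed between 0 and 0.429 RPKM in that library, 2 of them, Mael and Hormad1, with 0 reads. In each E9.25 ysE library 2 genes passed 1 RPKM, Tex19.1 and Rhox5. In both mesoderm libraries Rhox5 and Sycp3 did, and in both liver libraries Rhox5 alone did. The median of the 10 genes was 0.118 RPKM in E12.5 ysE, 0.225 and 0.135 in the E9.25 libraries, 0.311 and 0.229 in VYS mesoderm and 0.0125 and 0.0140 in fetal liver. Of the transcripts with reads in at least 1 of the 11 libraries, between 48.6% and 56.4% reached 1 RPKM in a given library. In tissue samples of this kind, fewer cells of a type and less RNA per cell cannot be told apart.

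**Figure D1:**
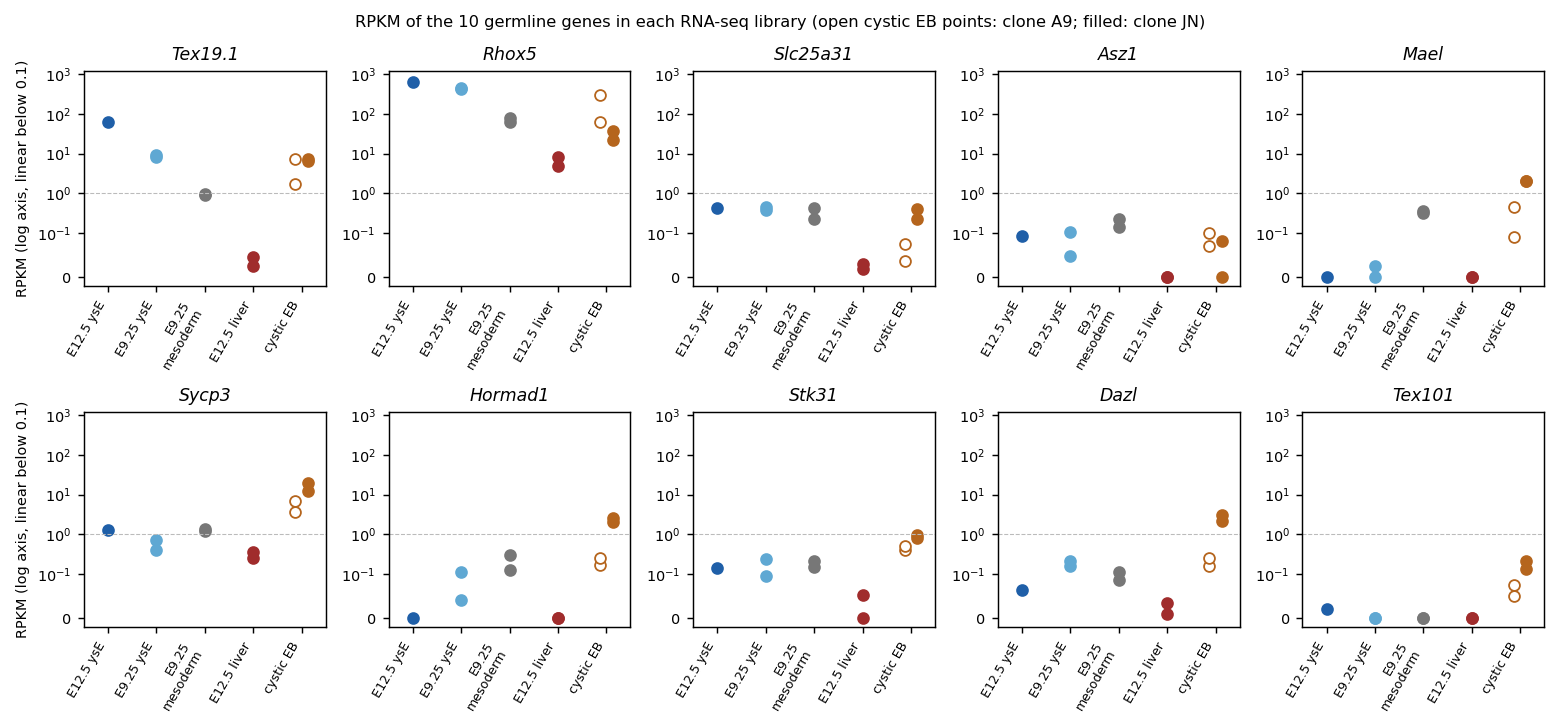
RPKM of each of the 10 genes (vertical axis, logarithmic above 0.1 and linear below) in every RNA-seq library, by group; each point is 1 library, open cystic EB points are clone A9 and filled ones clone JN, and the dashed line marks 1 RPKM. Tex19.1 reached 64.1 RPKM and Rhox5 644 in E12.5 ysE, while Mael and Hormad1 had 0 reads there and were highest in clone JN.

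Tex19.1, which in germ cells and placenta takes part in the control of retrotransposons, was measured at 64.1 RPKM in E12.5 ysE. It had 9.39 and 8.41 RPKM in the E9.25 ysE libraries, 0.952 and 0.940 in VYS mesoderm and 0.025 and 0.045 in fetal liver. The 3 ysE libraries were thus above all mesoderm and liver libraries, with no overlap, and the E12.5 library was above both of E9.25. At E9.25 the mean was 9.41-fold higher in ysE than in VYS mesoderm, and at E12.5 it was 1833-fold higher in ysE than in fetal liver, where 10 reads were counted in both libraries together. Tex19.1 shares sequence with Tex19.2, and how reads that match both were counted is not given in the sources used here. Tex19.2 itself stayed between 0 and 0.362 RPKM in all 11 libraries.

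Rhox5, an X-linked homeobox gene of the reproductive homeobox cluster, was the most abundant of the 10 per length in every library. It was at 644 RPKM in E12.5 ysE, at 419.9 and 442 in E9.25 ysE, at 61.7 and 77.0 in VYS mesoderm and at 8.26 and 4.96 in fetal liver. As for Tex19.1, each ysE library was above each mesoderm library and each mesoderm library above each liver library. The mean was 6.21-fold higher in E9.25 ysE than in VYS mesoderm and 97.4-fold higher in E12.5 ysE than in fetal liver. Since both genes are also active in trophoblast, 6 of its markers were read beside them. They summed to 321 RPKM in E12.5 ysE and 81.1 and 93.8 RPKM in E9.25 ysE, against 12.2 to 14.6 RPKM in VYS mesoderm and 3.43 to 6.41 RPKM in fetal liver. In E12.5 ysE 2 of the 6 reached 1 RPKM, the keratin Krt7 at 319 RPKM and the regulator Cdx2 at 1.64 RPKM, while the regulators Eomes and Elf5 were at 0.258 and 0.064 RPKM. Their part in the values of Tex19.1 and Rhox5 was not tested.

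The remaining 8 genes were low in ysE. Among the genes of the piRNA pathway, Mael had 0 reads in E12.5 ysE and 0 and 0.025 RPKM in E9.25 ysE, but 0.327 and 0.362 in VYS mesoderm. Asz1 was at 0.093 RPKM in E12.5 ysE, 0.048 and 0.109 in the E9.25 libraries and 0.140 and 0.223 in VYS mesoderm, so that its ysE and mesoderm libraries lay close together without overlap at E9.25. Both had 0 reads in both liver libraries.

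Sycp3, which builds the axes of meiotic chromosomes, was at 1.26 RPKM in E12.5 ysE, between the mesoderm libraries (1.24 and 1.33) and above the E9.25 ysE libraries (0.709 and 0.398) and liver (0.255 and 0.350). Hormad1, which binds the same axes, had 0 reads in E12.5 ysE and in fetal liver, 0.116 and 0.041 RPKM in E9.25 ysE and 0.294 and 0.129 in VYS mesoderm. At E9.25 both genes were higher in each mesoderm library than in each ysE library, but edgeR called neither.

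Slc25a31, a mitochondrial ADP/ATP carrier of testis, was at low levels in every tissue. Its RPKM was 0.429 in E12.5 ysE, 0.385 and 0.457 in the E9.25 libraries, 0.434 and 0.234 in VYS mesoderm and 0.031 and 0.019 in fetal liver. The ysE and mesoderm libraries overlapped, and both were above the liver. Stk31, a Tudor domain protein of germ cells, was at 0.143 RPKM in E12.5 ysE, 0.235 and 0.095 in the E9.25 libraries, 0.215 and 0.150 in VYS mesoderm and 0 and 0.053 in fetal liver. Dazl, an RNA-binding protein that germ cells need, was at 0.063 RPKM in E12.5 ysE, 0.214 and 0.161 in the E9.25 libraries, 0.113 and 0.086 in VYS mesoderm and 0.034 and 0.009 in fetal liver. Tex101, a surface protein of germ cells, was counted once in E12.5 ysE (0.022 RPKM) and had 0 reads in the 6 libraries of E9.25 ysE, mesoderm and liver. A count of 0 allows up to 3 reads in a library, and this floor covers counting error only.

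In the comparison of E12.5 ysE with E12.5 liver, which sets the extra-embryonic endoderm beside an embryonic endoderm organ of the same age, 4 of the 10 genes were higher in ysE and none was lower, where 22.6% of the 24858 transcripts tested were higher and 23.7% lower. Tex19.1 (log2 fold change 10.86 ± 0.89, SE), Rhox5 (6.63 ± 1.34) and Slc25a31 (4.09 ± 1.18) rose with adjusted p of 4.84e-05, 0.00336 and 0.0183 in the quasi-likelihood test of edgeR, adjusted by Benjamini-Hochberg. Asz1, with 7 reads in ysE and 0 in fetal liver, was at least 7.09-fold higher at equal depth against a floor of 3 reads over both liver libraries, and its call (edgeR adjusted p = 0.0469) was lost in 14 of 19 alternative settings. The median log2 fold change was 3.31 over the 10 genes and -0.26 over all transcripts. The median of the 10 takes in fitted values of Mael, Hormad1 and Tex101, which had at most 3 reads in either group, and of Asz1. Tex101, with 1 read in ysE and 0 in fetal liver, was not called. Sycp3 (2.09 ± 0.82, edgeR adjusted p = 0.0616), Stk31 (2.52 ± 1.27, edgeR adjusted p = 0.131) and Dazl (1.54 ± 1.76, edgeR adjusted p = 0.494) were not called, and Mael and Hormad1 had no reads in either group. Sycp3 passed in DESeq2 (adjusted p = 0.0295) and without the cystic EB library of day 10 of clone A9 (edgeR adjusted p = 0.0213) or JN (0.0321). Stk31 passed without liver library B (edgeR adjusted p = 0.00630), which leaves no reads in liver. The E12.5 ysE is 1 library, so the test assumes that it varies like the other groups. Other markers differed between these samples: erythroid ones summed to 14.8 RPKM in ysE against 465 and 769.6 RPKM in fetal liver, those of vessels and mesoderm to 0.529 against 50.7 and 55.0 RPKM, and those of hepatoblasts to 260.2 against 483 and 1013 RPKM, and their part was not tested. The count was 2 without liver library A, and Slc25a31 was also lost without liver library B (edgeR adjusted p = 0.0872).

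In the comparison of E9.25 ysE with VYS mesoderm of the same age, 1 of the 10 genes was called, against 13.7% of all transcripts higher in ysE and 16.9% lower. Tex19.1 rose by 3.55 ± 0.60 (log2, SE; n = 2 and 2) with an adjusted p of 0.00218 in edgeR's quasi-likelihood test, and it was called in all 23 alternative settings run, whose log2 fold changes ranged from 2.35 to 3.62. Rhox5 (2.95 ± 1.09, edgeR adjusted p = 0.0663) and Mael (-4.25 ± 1.56, edgeR adjusted p = 0.0708) were the next, in opposite directions. Both passed in DESeq2 (adjusted p = 0.00807 and 0.00788) and in a fit of these 2 groups alone. Rhox5 also passed without the cystic EB library of clone JN at day 10 (edgeR adjusted p = 0.0340) or of clone A9 at day 15 (0.00152), and Mael without that of clone A9 at day 10 (0.0264). The other 7 genes had log2 fold changes between -1.11 and 1.23, Tex101 with no reads in either group. Markers of blood vessels and mesoderm (Kdr, Pecam1, Cdh5, Tie1, Tek and Cd34) summed to 8.65 and 11.9 RPKM in E9.25 ysE against 243 to 271 RPKM in the mesoderm, and the 8 markers of ysE to 11149 to 12461 RPKM in ysE against 1223 to 2165 RPKM in the mesoderm. Erythroid markers summed to 21620 and 16814 RPKM in the mesoderm against 455 and 528 RPKM in E9.25 ysE. All 6 markers of vessels and mesoderm and all 8 of ysE were detected in both tissues. Whether RNA of one layer in the sample of the other has a part in the values of Tex19.1, Rhox5 or Sycp3 was not tested.

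Between E9.25 and E12.5 the ysE values of Tex19.1 rose 7.21-fold in RPKM, with a log2 fold change of 2.77 ± 0.64 and an adjusted p of 0.0311 in edgeR's quasi-likelihood test. It was the only 1 of the 10 genes called, against 8.47% of all transcripts in either direction. The call was lost without any 1 of the 4 E9.25 ysE and mesoderm libraries, and the adjusted p over 20 alternative settings reached 0.154. Rhox5 was 1.49-fold higher at E12.5, which did not pass (edgeR adjusted p = 0.840). Hormad1 had 32 reads in the E9.25 libraries and 0 at E12.5, at least 1.55-fold lower, and Mael had 7 reads and 0, too few for a fold. In a fit of these groups alone, with the spread taken from the E9.25 libraries, Rhox5 (log2 fold change 0.634) and Sycp3 (1.25) also passed. Age and protocol cannot be told apart in this comparison. The markers of mesoderm and vessels were at 0.529 RPKM in sum at E12.5, below both E9.25 ysE libraries. Erythroid markers (6 genes) were at 14.8 RPKM in sum at E12.5 against 455 and 528 RPKM at E9.25, and hepatoblast markers (5 genes) at 260.2 RPKM against 15.8 and 22.5 RPKM. Their part in the values was not tested.

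In both A9 libraries of cystic EBs 3 of the 10 genes reached 1 RPKM, Tex19.1, Sycp3 and Rhox5, the 3 that did in E12.5 ysE. In both JN libraries 6 did, these 3 and Dazl, Mael and Hormad1. The median of the 10 genes was 0.164 and 0.354 RPKM in A9 and 2.09 and 2.06 in JN (days 10 and 15). Mael was at 0.092 and 0.452 RPKM in clone A9 (days 10 and 15) and at 2.11 and 2.01 in clone JN. Sycp3 was at 3.57 and 6.85 RPKM in A9 and 19.13 and 12.6 in JN, and Hormad1 at 0.167 and 0.254 in A9 and 2.08 and 2.57 in JN. For all 3 genes each of the 4 cystic EB libraries was above both E9.25 ysE libraries, and clone JN was above clone A9.

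Dazl followed the same order of clones, with 0.161 and 0.255 RPKM in A9 and 3.07 and 2.12 in JN, but A9 at day 10 did not exceed the E9.25 ysE libraries. Stk31 was at 0.415 and 0.513 RPKM in A9 and 0.977 and 0.817 in JN, and Tex101 at 0.075 and 0.050 in A9 and 0.214 and 0.138 in JN. Slc25a31 was at 0.037 and 0.075 RPKM in A9 and 0.395 and 0.233 in JN, where JN at day 10 lay among the ysE values. Asz1 did not exceed 0.1 RPKM in any cystic EB library. The 2 genes highest in ysE went another way: Rhox5 was at 61.9 and 293 RPKM in A9 and 21.8 and 38.1 in JN, all below the ysE libraries, and Tex19.1 at 1.70 and 7.15 in A9 and 6.48 and 7.17 in JN, all below the E9.25 ysE libraries.

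The test against E9.25 ysE took the 4 libraries as independent, although they come from 2 clones and the libraries of 1 clone deviated together on both days (r = 0.614 over transcripts). In this test 4 of the 10 genes were higher in cystic EBs and 1 was lower, where 27.1% of all transcripts were higher and 23.2% lower. The genes that rose were Sycp3 (3.80 ± 0.70, edgeR adjusted p = 0.00191), Mael (5.87 ± 1.58, 0.0146), Hormad1 (3.56 ± 1.29, 0.0476) and Tex101, which had 52 reads in cystic EBs and 0 in ysE and was at least 15.7-fold higher at equal depth (edgeR adjusted p = 0.0141). Tex101 passed the filter on low counts only through cystic EB libraries, so its call as higher there adds no support. Its bound pools 5 and 3 reads in A9 with 26 and 18 in JN (days 10 and 15). Hormad1 lost its call in 14 of 24 alternative settings, among them a block by replicate letter, which is the clone in cystic EBs (edgeR adjusted p = 0.109, with 4 genes called). In mean RPKM, Sycp3 was 19.06-fold higher and Hormad1 16.1-fold, or 30.9-fold without E9.25 ysE library A and 10.6-fold without the JN library of day 15. Mael was 93.3-fold higher, a value that rests on 7 reads in ysE library B and was 46.6-fold without library A, while without library B ysE had no reads. Rhox5 fell (-2.46 ± 0.84, edgeR adjusted p = 0.0347), 4.15-fold in mean RPKM, or 10.6-fold without the A9 library of day 15, which held 293 RPKM. Its call was lost in 8 of 24 alternative settings. Dazl (2.44 ± 1.14, edgeR adjusted p = 0.0998), Stk31 (1.59 ± 0.89, 0.159), Tex19.1 (-1.11 ± 0.46, 0.0682) and Slc25a31 (-1.61 ± 0.75, 0.0991) were not called. Of these, DESeq2 called Dazl (adjusted p = 0.0199) and Stk31 (0.0489), and Stk31 passed in 6 of 24 alternative settings, with limma on log2 RPKM among them (adjusted p = 0.00840 to 0.0176). The count was 1 without E9.25 ysE library A, 2 without library B and 3 without the JN library of day 15. With the 2 JN libraries alone, which share the dUTP method with the E9.25 ysE, 7 genes were called, 5 higher and 2 lower. Tex19.1 (log2 fold change -0.939, edgeR adjusted p = 0.00194) was among the lower and Dazl (3.25, 0.000596) among the higher. Both were also called without the A9 library of day 10 (Tex19.1 -0.803, edgeR adjusted p = 0.0120, Dazl 2.82, 0.0351).

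Cystic EBs were also set against E12.5 ysE and liver, comparisons that share the same 4 cystic EB libraries. Against E12.5 ysE, tested at a false discovery rate (FDR) of 1%, only Tex19.1 was called, with a log2 fold change of -3.87 ± 0.52 (edgeR adjusted p = 0.000469), where 23.3% of all transcripts were called in either direction. With the 4 cystic EB libraries pooled, Hormad1 and Mael were at least 38.7-fold and 35.5-fold higher than in E12.5 ysE at equal depth (edgeR adjusted p = 0.0491 and 0.0574). Sycp3 (2.70 ± 0.90, edgeR adjusted p = 0.0391) and Dazl (4.09 ± 1.82, 0.101) were higher in value and Rhox5 (-2.96 ± 0.98, 0.0374) lower, none of them past 1%. DESeq2 called 4 more genes at 1%, Sycp3 (adjusted p = 0.00228), Hormad1 (0.00233), Mael (0.00319) and Dazl (0.00763), while a fit of these groups alone left Tex19.1 just short of it (edgeR adjusted p = 0.0104). The count against E12.5 ysE was 2 without the A9 library of day 10 or of day 15. Against liver, 8 of the 10 genes were higher, where 24.6% of all transcripts were. They include Tex101, which passed the filter on low counts only through cystic EB libraries. The exceptions were Asz1 (edgeR adjusted p = 0.0539) and Slc25a31 (2.54 ± 0.97, 0.0575). DESeq2 called both (adjusted p = 0.0145 and 0.0188), and so did edgeR without TMM scaling (0.0492 and 0.0495). The count against liver was 4 without either liver library. In mean RPKM, Sycp3 was 34.9-fold higher than in fetal liver and Dazl 65.1-fold, between 39.2-fold and 156-fold on leaving out single libraries. The Dazl mean joins 0.161 and 0.255 RPKM in A9 with 3.07 and 2.12 in JN. With the 4 libraries pooled, Hormad1 and Mael were at least 118-fold and 108-fold higher at equal depth. Hormad1 had 16 and 22 reads in A9 and 362 and 481 in JN (days 10 and 15). Mael had 9 and 40 reads in A9 and 375 and 386 in JN. The bounds against both tissues thus rest mostly on JN and do not hold for A9 alone.

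**Figure D2:**
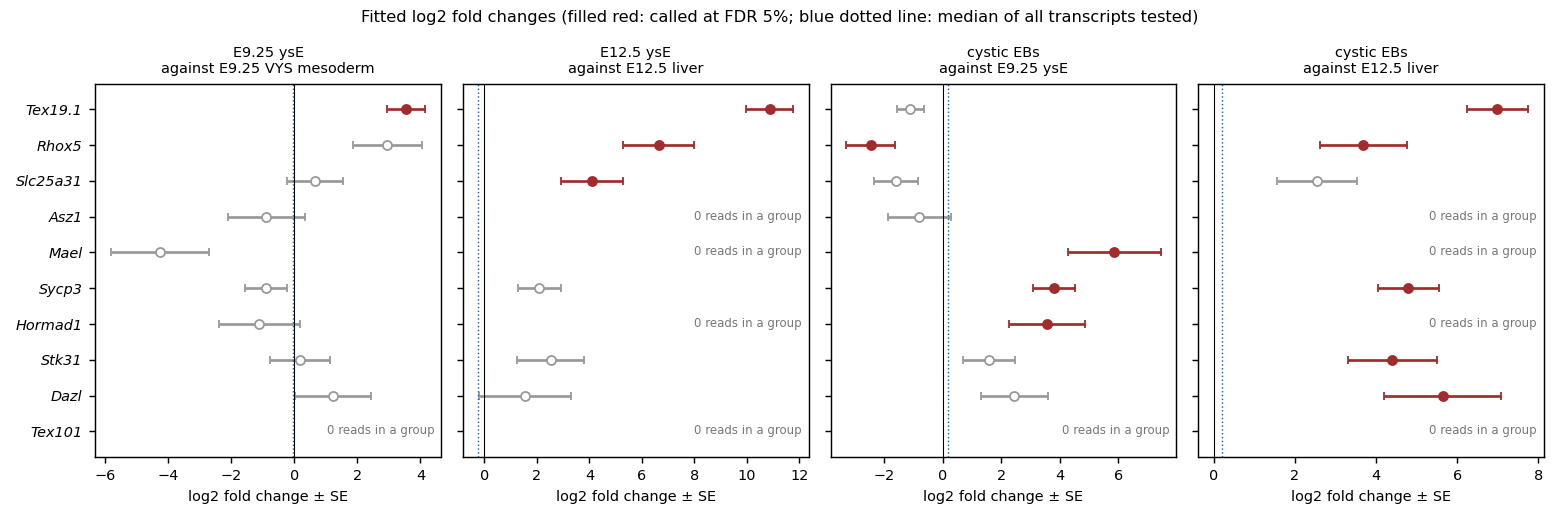
Log2 fold changes with SE (horizontal axis) of the 10 genes in 4 comparisons; filled red points were called at an FDR of 5%, open grey points were not, genes with 0 reads in a group carry no point, and the blue dotted line is the median of all transcripts tested. Tex19.1 is called in both comparisons of ysE with another tissue, and Sycp3, Mael and Hormad1 lie to the right of 0 in the comparison of cystic EBs with E9.25 ysE.

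The cystic EB libraries differed by clone. Both JN libraries were above both A9 libraries for 7 of the 10 genes, where 33.6% of all transcripts tested showed that order. In mean RPKM the ratio of JN to A9 was 12.47 for Dazl, 11.04 for Hormad1, 7.57 for Mael, 5.61 for Slc25a31, 3.05 for Sycp3, 2.82 for Tex101 and 1.93 for Stk31. Rhox5 had the opposite order, with a ratio of 0.169, and Tex19.1 and Asz1 overlapped. The ratios of Mael and Rhox5 depend on single A9 libraries, which were at 0.092 and 0.452 RPKM for Mael and at 61.9 and 293 RPKM for Rhox5. The summed trophoblast markers (6 genes) had the order of Rhox5, at 44.0 and 108 RPKM in A9 and 27.3 and 29.4 RPKM in JN. Krt7 (26.5 and 69.4 in A9 against 10.4 and 14.3 in JN) and Eomes (5.885 and 4.82 against 3.46 and 1.79) had this order singly. Cdx2 (3.20 and 2.27 against 1.05 and 4.09) and Tfap2c (7.47 and 26.2 against 11.7 and 8.58) overlapped between the clones. So did Elf5 (0.029 and 4.22 against 0.112 and 0.115). All 6 reached 1 RPKM in some cystic EB library. Their part in the values of Rhox5 was not tested. With 1 library per clone and day, and with each clone bound to 1 protocol, the clone, its sex and the protocol cannot be told apart, and no test was made. Markers of pluripotent cells moved with the clone as well: the 7 listed genes summed to 174 and 212 RPKM in A9 and 468 and 313 in JN at days 10 and 15, against at most 6.74 RPKM in any other library. Nanog was at 3.20 and 3.61 RPKM in A9 and 30.9 and 23.9 in JN, and Dppa5a at 14.8 and 20.7 in A9 and 180.2 and 139 in JN. Pou5f1 did not separate the clones, with 115 and 139 RPKM in A9 and 150.1 and 76.8 in JN. The part of remaining pluripotent or germ-like cells in the values of the germline genes was not tested.

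Markers of primordial germ cells (8 genes) summed to 30.8 to 65.9 RPKM in cystic EBs, with 6 of 8 above 1 RPKM in some library. Most of these sums came from Kit, at 15.1 to 33.2 RPKM, and Tfap2c, at 7.47 to 26.2 RPKM, each added over all its transcripts. Tfap2c is also among the trophoblast markers. Nanos2 (0 to 0.036 RPKM) and Nanos3 (0.191 to 0.393 RPKM) stayed low in cystic EBs. Dppa3 was at 1.04 and 0.577 RPKM in A9 and 10.8 and 6.485 in JN (days 10 and 15). Dnd1 was at 1.11 and 1.035 RPKM in A9 and 2.15 and 1.71 in JN. Prdm1 had the opposite order, at 3.09 and 1.78 RPKM in A9 and 1.56 and 1.42 in JN. Kit, Tfap2c, Nanos2 and Nanos3 did not separate the clones. The A9 library of day 15 had the highest sum, with Kit at 33.2 and Tfap2c at 26.2 RPKM. The 8 markers summed to 5.21 RPKM in E12.5 ysE, 3.82 and 4.505 in the E9.25 libraries, 7.76 and 4.46 in VYS mesoderm and 11.7 and 11.8 in fetal liver. Among them Ddx4, the germ cell RNA helicase, was at 2.58 and 2.81 RPKM in A9 and 5.12 and 3.675 in JN. In E12.5 ysE it was at 0.083 RPKM, all values summed over its transcripts. In E12.5 ysE, Nanog and Pou5f1 and the germ cell genes Dppa3 and Nanos2 had 0 RPKM. Prdm1, a repressor that primordial germ cells share with other cell types, made up most of the sum there with 3.815 RPKM, above the 1.42 to 3.09 RPKM of cystic EBs, and Nanos3, at 0.604 RPKM, was higher than in the other 10 libraries (0 to 0.468). The part of germ cells in the ysE values was not tested.

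Reads along the exons of the same genes were available for 1 E9.25 ysE library and the 4 cystic EB libraries. Tex19.1 had reads in 6 of 6 exon parts in ysE and in 5 or 6 in cystic EBs, with 68.7% to 74.0% of its reads in the largest part. Mael and Tex101 had reads in none of their 12 and 6 exon parts in ysE, while both JN libraries covered all 12 parts of Mael. Hormad1 was covered in 9 of 23 parts in ysE, 8 in each A9 library and 23 in each JN library, and Dazl in 7 of 11 parts in ysE and 11 in each JN library. Asz1 had reads in 9 of 23 parts in ysE. Sycp3 had reads in 6 of 12 parts in ysE and 6 or 7 in cystic EBs, and its exon parts held fewer reads than its RefSeq transcript, 23 against 95 in ysE and 1348 against 2471 in the JN library of day 10, so that its RPKM and folds depend on which of both counts is used. Rhox5 was covered in 6 of 6 parts in all 5 libraries, but the largest part held 70.2% and 72.3% of its reads in the A9 libraries and 35.9% to 38.6% in the JN libraries and ysE. The A9 libraries were the ScriptSeq libraries among these 5.

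Further genes of the same pathways were read from lists of piRNA and transposon control (15 of 18 genes tested), meiosis (25 of 26) and the silencing of germline genes (18 of 18). Of the piRNA genes, 5 were higher and 1 was lower in E9.25 ysE than in VYS mesoderm, where 13.7% and 16.9% of all transcripts were, and 4 were higher and 2 lower in E12.5 ysE than in fetal liver, near the 22.6% and 23.7% of all transcripts. Of these, Tdrd5, Mov10l1 and Fkbp6 passed in both. Tdrd5, a Tudor protein of the germ granule, was at 1.95 RPKM in E12.5 ysE, 2.16 and 2.43 in the E9.25 libraries, 0.240 and 0.295 in VYS mesoderm and 0.032 and 0.042 in fetal liver (3.41 ± 0.64, edgeR adjusted p = 0.00342, and 5.75 ± 0.78, 0.000434). Tdrd7, of the same family, was at 49.5 RPKM in E12.5 ysE against 1.59 and 1.96 in fetal liver (4.83 ± 0.57, edgeR adjusted p = 0.000209). The RNA helicase Mov10l1 (3.26 ± 0.93 and 5.02 ± 1.13) and the co-chaperone Fkbp6 (4.46 ± 1.01 and 4.13 ± 1.15) had edgeR adjusted p between 0.00574 and 0.0249, but stayed at or below 1.35 RPKM in every ysE library. In cystic EBs against E9.25 ysE, where 27.1% of all transcripts were higher and 23.2% lower, 2 of the 15 were higher, Ddx4 (3.13 ± 0.43, edgeR adjusted p = 0.000401) and Tdrkh (2.14 ± 0.28, 0.000288), and 2 were lower, Fkbp6 (-2.44 ± 0.72, 0.0189) and Tdrd7 (-1.57 ± 0.38, 0.00750).

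Of the 25 meiosis genes, 1 was higher and 2 were lower in E9.25 ysE than in VYS mesoderm, against 13.7% and 16.9% of all transcripts, and 2 were higher and 5 lower in E12.5 ysE than in fetal liver, against 22.6% and 23.7%. Rec8, the meiotic subunit of cohesin, was at 18.6 RPKM in E12.5 ysE, 1.63 and 2.01 in the E9.25 libraries, 0.344 and 0.407 in VYS mesoderm, 0.344 and 0.515 in fetal liver and 1.10 to 1.21 in cystic EBs. It rose in all 3 ysE comparisons, against mesoderm (2.59 ± 0.32, edgeR adjusted p = 0.000486), against liver (5.46 ± 0.38, 3.44e-05) and from E9.25 to E12.5 (3.27 ± 0.35, 0.00183). Tex15, which acts in meiotic recombination and in piRNA-guided silencing, fell in the same 3 comparisons (-1.92 ± 0.49, -5.24 ± 1.02 and -4.16 ± 1.04, edgeR adjusted p = 0.0154, 0.00280 and 0.0406). Its tissue levels were low, with 0.003 RPKM in the single E12.5 ysE library, on which the larger folds rest. They were 0.044 and 0.053 RPKM in E9.25 ysE, 0.209 and 0.253 in VYS mesoderm and 0.050 and 0.170 in fetal liver. The recombinase Dmc1 was at 0 RPKM in E12.5 ysE, 0.005 and 0.019 in the E9.25 libraries and 1.46 to 3.47 in cystic EBs. In cystic EBs against E9.25 ysE, 13 of the 25 were higher and 1 was lower, where 27.1% and 23.2% of all transcripts were, with Dmc1 (7.19 ± 0.80, edgeR adjusted p = 0.000126) and Tex15 (5.16 ± 0.54, 9.88e-05) among those that rose.

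Of the other genes of the Rhox cluster, 5 of 12 passed the filter on low counts, and edgeR called none of them in any of the 6 comparisons. At an unadjusted p under 0.05 there were 2, both between cystic EBs and liver, and DESeq2 called 2 in that comparison and 1 between cystic EBs and E9.25 ysE. Rhox6 was at 22.3 RPKM in E12.5 ysE, 34.2 and 36.0 in the E9.25 libraries, 3.65 and 8.81 in VYS mesoderm, 2.04 and 3.96 in fetal liver and 2.42 to 161 in cystic EBs, so that unlike Rhox5 its highest library was of cystic EBs. Rhox6 was chosen for mention after its values were seen.

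Of the 18 genes that act in silencing germline genes, 3 were higher and 1 was lower in E9.25 ysE than in VYS mesoderm, and 3 were higher and 6 lower in E12.5 ysE than in fetal liver, where 13.7% and 16.9%, and 22.6% and 23.7%, of all transcripts were. Ehmt2, a histone H3K9 methyltransferase, rose in both (1.03 ± 0.23, edgeR adjusted p = 0.00747, and 1.82 ± 0.26, 0.000600), with 69.8 RPKM in E12.5 ysE, 47.8 and 59.3 in the E9.25 libraries, 32.5 and 32.8 in VYS mesoderm and 18.3 and 23.0 in fetal liver. The de novo methyltransferase Dnmt3a (1.11 ± 0.23, edgeR adjusted p = 0.00523) and the polycomb-like L3mbtl2 (1.01 ± 0.28, 0.0214) were the others higher than in VYS mesoderm. Pcgf6 (2.54 ± 0.51, edgeR adjusted p = 0.00334) and Rnf2 (2.35 ± 0.29, 0.000279), of the polycomb complex that E2F6 and MGA recruit, were the others higher than in fetal liver. The study itself reported no significant difference between its tissues for Rnf2. For Ehmt2 it reported a higher level in ysE than in fetal liver and cystic EBs, short of significance. The liver comparison here rests on 1 ysE library of another protocol. The 6 that were lower there were Atf7ip (-2.25 ± 0.31, edgeR adjusted p = 0.000464), Hells (-1.65 ± 0.35, 0.00403), Setdb1 (-1.06 ± 0.34, 0.0288), the maintenance methyltransferase Dnmt1 (-0.999 ± 0.366, 0.0482), Mga (-0.92 ± 0.32, 0.0386) and Dnmt3a itself (-0.89 ± 0.29, 0.0288). Dnmt3a was thus higher in ysE than in mesoderm at E9.25 and lower than in fetal liver at E12.5. Atf7ip was the 1 gene lower than in VYS mesoderm (-0.78 ± 0.23, edgeR adjusted p = 0.0264). Setdb1, Dnmt1, Mga and the liver value of Dnmt3a were chosen for mention after their values were seen. In cystic EBs against E9.25 ysE 4 were higher and 4 lower, against 27.1% and 23.2% of all transcripts, led by Dnmt3l, the cofactor of de novo methylation (9.40 ± 1.27, edgeR adjusted p = 0.000361), at 6.07 to 30.7 RPKM in cystic EBs and at most 0.025 in ysE.

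Within 1 kb of the starts of the germline genes, methylation was high in ysE as well as in fetal liver and cystic EBs. Reads at CpGs within 1 kb of the start were counted for the 9 autosomal genes, while calls on chromosome X, and so Rhox5, were not analysed here. Over the 9 genes 74.9% of 338 reads were methylated in ysE, 84.7% of 321 in fetal liver and 78.6% of 444 in cystic EBs, over both crosses. The order of the tissues depended on the window: within 500 bases the shares were 75.7%, 88.5% and 74.3%, and within 2 kb 74.2%, 74.95% and 78.9%. At least 50% of the reads were methylated at 9 of 9 genes in the CxF ysE library and at 8 of 9 in the FxC library, where 45.6% and 42.6% of all promoters were in that state. Of the promoters with at least 15 CpGs, which is the range of these genes, 19.8% and 21.5% were. In liver it was 8 of 8 genes with at least 5 reads in each library, against 29.2% and 34.6% of CpG-rich promoters, and in cystic EBs 7 of 8 in each, against 38.1% and 35.5%. The median CpG-rich promoter was methylated at 20% of reads in both ysE libraries, 27.3% and 33.3% in fetal liver and 35.9% and 33.3% in cystic EBs.

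**Figure D3:**
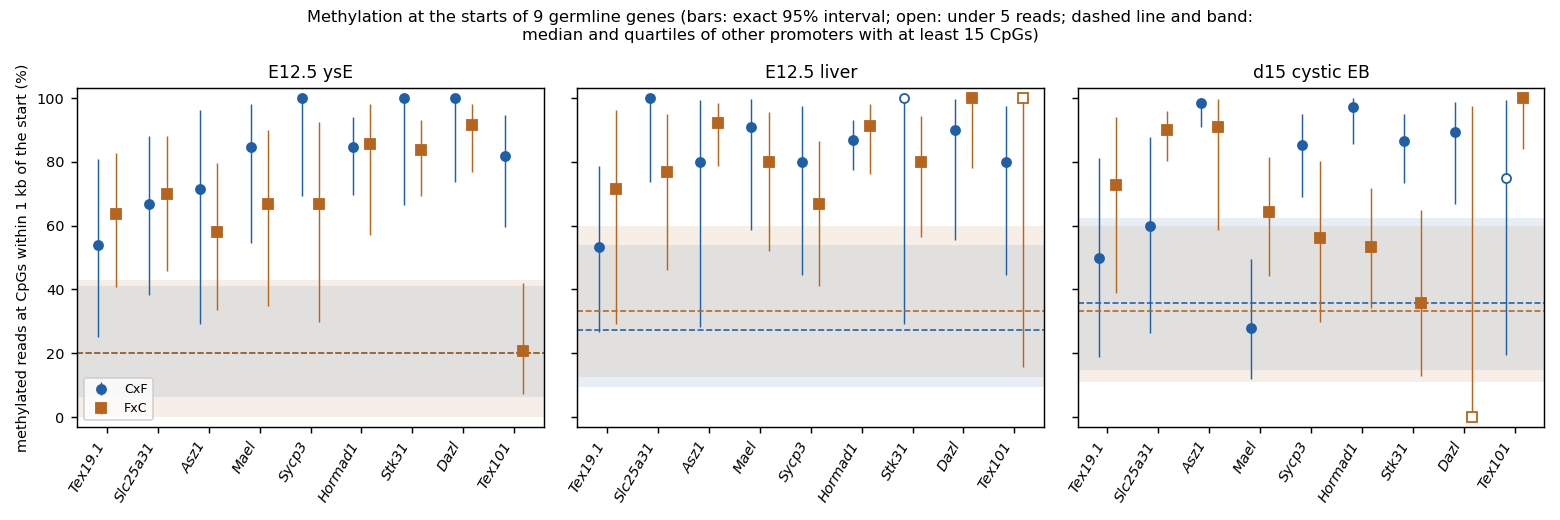
Methylated reads at CpGs within 1 kb of the start (vertical axis, percent) for 9 autosomal germline genes in E12.5 ysE, E12.5 liver and day 15 cystic EBs; circles are cross CxF, squares FxC, bars are exact 95% binomial intervals, open symbols rest on under 5 reads, and the dashed lines and bands are the median and quartiles of other promoters with at least 15 CpGs. In ysE all genes but Tex101 in cross FxC lie at or above 53.8%, above the CpG-rich median of 20%. A read is counted once for each CpG it covers, so the intervals can be too narrow.

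Single genes rested on few reads, and the exact (Clopper-Pearson) 95% binomial intervals were wide. They leave out variation between samples. A read that covers several CpGs was counted at each of them, while the intervals take the counts as independent. They can therefore be too narrow even for counting error. Tex19.1 was methylated at 7 of 13 and 14 of 22 reads in ysE (53.8%, interval 25.1 to 80.8, and 63.6%, 40.7 to 82.8), 8 of 15 and 5 of 7 in fetal liver and 5 of 10 and 8 of 11 in cystic EBs. Pooled over crosses and the whole window it was at 60% in ysE, 59.1% in fetal liver and 61.9% in cystic EBs, so that no difference between tissues was detectable at this depth. Within 250 bases of the start the ysE reads came from cross FxC alone, with 14 of 18 methylated before the start and 0 of 2 after it. Liver had 8 of 8 before the start in CxF, and after it 0 of 1 in CxF and 2 of 3 in FxC. Cystic EBs had 0 of 1 before it in FxC and 0 of 2 after it in CxF. Levels at the start itself were therefore not compared. Expression of Tex19.1 over the same tissues went from 64.1 RPKM in E12.5 ysE to 0.025 and 0.045 in fetal liver.

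Mael was methylated at 11 of 13 and 8 of 12 reads in ysE, 10 of 11 and 12 of 15 in fetal liver and 7 of 25 and 18 of 28 in cystic EBs. In cystic EBs this was 28.0% (interval 12.1 to 49.4) and 64.3% (44.1 to 81.4). The CxF cystic EB library was lowest also within 2 kb, at 13 of 37 reads, whereas the FxC library, at 34 of 48 reads, was there above ysE of FxC (8 of 14). Asz1 went the other way, with 5 of 7 and 11 of 19 reads in ysE, 4 of 5 and 35 of 38 in fetal liver and 59 of 60 and 10 of 11 in cystic EBs. Its ysE libraries (71.4% and 57.9%) were the lowest.

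Dazl was methylated at 12 of 12 and 32 of 35 reads in ysE, 9 of 10 and 15 of 15 in fetal liver and 17 of 19 and 0 of 1 in cystic EBs. Of its ysE reads only 2, after the start in FxC, lay within 250 bases, and 0 of these were methylated. Within 2 kb of the start its liver libraries were lower, at 17 of 32 and 24 of 46 reads, against 35 of 37 and 42 of 49 in ysE. Hormad1 was at 33 of 39 and 12 of 14 reads in ysE and 72 of 83 and 31 of 34 in fetal liver, and in cystic EBs at 35 of 36 in cross CxF but 16 of 30 in FxC. Slc25a31 was at 10 of 15 and 14 of 20 reads in ysE, 12 of 12 and 10 of 13 in fetal liver and 6 of 10 and 62 of 69 in cystic EBs. Its ysE libraries, 66.7% and 70.0%, were below both liver libraries. Tex101 differed between the ysE libraries, with 18 of 22 reads in CxF and 5 of 24 in FxC (20.8%, interval 7.13 to 42.2). In the 250 bases after its start, 15 of 15 reads were methylated in ysE of CxF and 0 of 12 in ysE of FxC. There it was 1 of 3 in liver of CxF and 6 of 6 in cystic EBs of FxC. Stk31 was at 9 of 9 and 36 of 43 reads in ysE, 3 of 3 and 16 of 20 in fetal liver and 39 of 45 and 5 of 14 in cystic EBs, so that its cystic EB libraries differed. Sycp3 was at 10 of 10 and 6 of 9 reads in ysE, 8 of 10 and 12 of 18 in fetal liver and 29 of 34 and 9 of 16 in cystic EBs.

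No change in methylation passed a test between tissues. Of the 9 genes, 6 had at least 5 reads in all 6 libraries, Tex19.1, Mael, Sycp3, Asz1, Slc25a31 and Hormad1, among 5111 such promoters. The negative binomial quasi-likelihood test of edgeR was run on methylated and unmethylated reads over both crosses, with Benjamini-Hochberg adjustment over all promoters. It called 0 of the 6 in each of the 3 comparisons. Of all promoters it called 0%, 0.0196% and 0.0587% for ysE against liver, cystic EBs against ysE and cystic EBs against liver. At an unadjusted p under 0.05 there was 1 of the 6, Asz1 in cystic EBs against ysE (log2 odds change 3.85 ± 1.91, adjusted p = 0.382 in the same fit over 2 and 2 libraries), where 629 of the 5111 promoters passed that unadjusted level. With limma on log odds 0 of the 6 were called. SEs of 1.49 to 2.50 on the log2 odds scale show how little 2 libraries of this depth can resolve for a single gene. Between ysE and liver the median difference was -6.81 percentage points over the 6 genes and -9.86 over all promoters, and 5 of 6 genes were lower in ysE, as were 68.7% of all promoters. Between cystic EBs and ysE it was -3.63 points over the 6 genes and 15.0 over all promoters.

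Just before the start the reads of a library fell on 2 to 6 of the 9 genes, which differed between libraries. Within 250 bases upstream, 11 of 15 reads were methylated in ysE of cross CxF, at Asz1 and Mael alone, and 37 of 50 in FxC, at Asz1, Stk31, Tex101 and Tex19.1, against 35.6% and 34.0% at other promoters. In liver it was 28 of 30 and 8 of 9 reads, of which Hormad1 held 16 and 7, against 46.2% and 51.1%, and in cystic EBs 26 of 41 and 46 of 54 reads against 56.3% and 54.8%. Levels of the tissues in this window were therefore not compared. In the 250 bases after the start, 84.2% of 57 reads at 4 genes, 33 of them at Hormad1, were methylated in ysE of cross CxF but 18.2% of 22 reads at 7 genes in FxC, against 41.8% and 39.2% at other promoters. Of these 22 reads 12 lay at Tex101, and none of the 12 was methylated. In liver 42 of 49 and 9 of 12 reads after the start were methylated, against 51.2% and 54.0% at other promoters. These are counts of reads that several CpGs of 1 gene share.

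**Figure D4:**
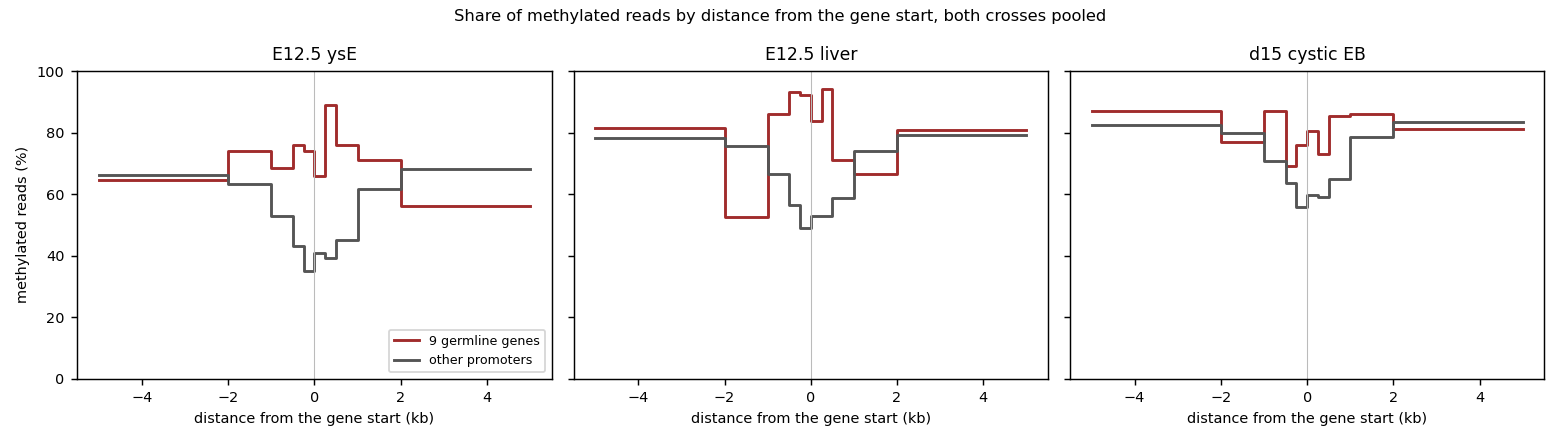
Share of methylated reads (vertical axis, percent) by distance from the gene start (horizontal axis, kb) for the 9 germline genes and for all other promoters in E12.5 ysE, E12.5 liver and day 15 cystic EBs, both crosses pooled. Other promoters dip at the start in all 3 tissues. By single ysE library (not drawn), they were at 35.6% and 34.0% within 250 bases upstream. The germline genes with reads there (2 in CxF, 4 in FxC) were at 73.3% and 74.0%. In the next 250 bases the germline genes were at 84.2% in cross CxF and 18.2% in FxC, a difference that the pooled curve hides.

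H3K4me3 in E12.5 VYS marked 3 of the 10 genes within 1 kb of their start, where 45.4% of all promoters had a peak. Among promoters with at least 15 CpGs 90.2% had one, against 2 of the 9 autosomal genes. At Tex19.1 the peak lay at chr11:121146063-121147126, from -80 to 983 bases of the start, with a score of 459, where the score is −10 log10 of the peak caller's p and the median of all 22343 peaks was 863. The peak near Dazl, at chr17:50292316-50293046, began 574 bases after the start (score 426). The peak at Rhox5, at chrX:37754041-37754806, covered the start, from -567 to 198 bases of it (score 259). The peaks at Tex19.1 and Rhox5 cover the starts of the 2 genes that were highest in ysE RNA. Mael, Sycp3, Asz1, Tex101, Slc25a31, Hormad1 and Stk31 had no peak within 1 kb. None of the 3 peaks reached the median score. The sample was 1 library of both yolk sac layers with no replicate, so the layer that carries a peak is not known.

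Among 13375 genes, those whose log2(RPKM + 1) was most like that of the germline genes over the 11 libraries were, for Tex19.1, the phosphatase gene Ssh3 (Pearson r = 0.980), 5730559C18Rik (0.977) and the claudin gene Cldn3 (0.969). For Rhox5 they were 4933402E13Rik (0.979), Arhgef3 (0.972) and Klhl22 (0.970). For Dazl they were Cbr3 (0.994), Zfp534 (0.993) and Rbmxl2 (0.992), for Mael Nanos1 (0.979), Cyct (0.977) and Hormad1 itself (0.975), for Sycp3 Nptx2, Trib3 and Tex14 (each 0.982) and for Hormad1 the gene listed as 100043387 (0.991), Efcab10 (0.986) and Zfp600 (0.982). These values describe 11 libraries in which tissue, protocol and clone move together. Of the 6 germline genes with a mean of 1 RPKM in some group, only Tex19.1 and Rhox5 had their highest library in ysE.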

How the data were processed

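RNA-seq, WGBS and H3K4me3 ChIP-seq data were analysed from the files the authors deposited, with groups taken from the sample labels. The authors aligned reads to mm10 with GSNAP and deposited raw counts per RefSeq transcript and RPKM values, made with RSeQC and their own scripts; the library size used for the RPKM, and how reads that match several places or either strand were counted, are not given in the sources used here. The 11 libraries held 40453779 to 169981821 counts. The authors also deposited counts per exon part of Ensembl genes, of which the file of 1 E9.25 ysE library holds only zeros and was not used, and a table of repeats, not used here. For WGBS, deposited files gave the percent of methylated reads and the count of reads for each CpG of each strand (BisSNP calls), with 6695942 to 11554658 reads at CpGs per library, with a median of 1 read per call. The H3K4me3 peaks carry the score that MACS (1.4.2) gave against input, deposited for 1 ChIP and 1 input library.

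All 30455 transcripts were filtered by edgeR's rule for low counts, which left 24858, among them all 10 genes. One model over 5 groups and 11 libraries was fitted with edgeR (4.0.16, TMM, quasi-likelihood test) in R 4.3.3, with an FDR of 5%, or 1% for cystic EBs against E12.5 ysE, as in the study. Methylated and unmethylated reads within 1 kb of RefSeq starts, with at least 5 reads in each of the 6 libraries, were tested with edgeR's negative binomial quasi-likelihood model. The alternative was limma (3.58.1) on log odds. Each SE is the absolute log2 change divided by the square root of the test's F statistic. Scripts were tested on simulated data. Alternatives were DESeq2 (1.42.0), other scalings and filters, limma on log2(RPKM + 0.1) and log2(RPKM + 1), leaving out each library, other windows and read minima. Promoter sequences and starts came from RefSeq (GRCm38.p6), matched by symbol for 10 of 10 genes, and 118 of 118 called positions in these promoters fell at or next to a CpG of the sequence. RPKM folds are ratios of group means, and folds with 0 reads in a group are bounds from counts over library totals.

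The genes and the lists were chosen with earlier results of these data known. Named were all 10 genes, the 3 genes most like each of those with a mean of at least 1 RPKM in some group, and genes of the pathway lists that passed and were among the 4 largest changes of their list. Samples pool litters or come from single clones, so p-values measure the spread between these samples. The labels do not say whether letters shared by replicates pair the samples. The correlation of deviations between groups was -0.074 to 0.158, and 0.614 between the days of the cystic EBs, which share clones. For the crosses of the WGBS samples it was -0.027 to 0.008. Such correlations of single library pairs cannot show that samples are unpaired, and the main fits used no pairing.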

Additional observations from a re-analysis of the deposited data

Results flagged for a closer look

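Within the 4 cystic EB libraries 1 library stood apart for 2 of the 10 genes, by the size of its gap to the nearest library relative to the whole range (above Dixon's critical value for 4 samples, with 10 genes examined, and chance flags about 1 in 20 groups). For Tex19.1 the A9 library of day 10 was lowest, at 1.70 RPKM against 6.48 to 7.17 RPKM in the others, a gap of 0.874 of the range. For Rhox5 the A9 library of day 15 was highest, at 293 RPKM against 21.8 to 61.9 RPKM in the others, a gap of 0.852 of the range. In that library the trophoblast markers also had their highest sum among cystic EBs, at 108 RPKM against 27.3 to 44.0 RPKM, as did the ysE markers, at 1410 RPKM against 165 to 545 RPKM, and their part in the value was not tested. Without the A9 library of day 10 the count of genes called against E12.5 ysE went from 1 to 2, and the same count was reached without the A9 library of day 15. Against E9.25 ysE, Tex19.1 was not called with all libraries. Without the A9 library of day 10 it was called lower in cystic EBs (log2 fold change -0.803, edgeR adjusted p = 0.0120).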

How the results depend on the processing

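No direction of a called gene was reversed in any setting run. Of the values for single genes, 1182 kept their side of the threshold, 71 lost it and 46 gained it. Of the counts of genes called, 134 settings stayed within 1.5 times the reported count. The others were, for E9.25 ysE against mesoderm (1 reported), 3 in DESeq2, 4 in a fit of these groups alone and 1 to 2 on leaving out single libraries; for E12.5 ysE against liver (4), 2 at an FDR of 1%, 2 in limma on log2(RPKM + 0.1) without a filter and 2 to 5 on leaving out single libraries; for E12.5 against E9.25 ysE (1), 3 in the groups alone, 0 at an FDR of 1%, 0 in limma without a filter and 0 to 1 on leaving out single libraries; for cystic EBs against E9.25 ysE (5), 3 in the groups alone, 1 at an FDR of 1%, 3 in limma on log2(RPKM + 1), 3 in limma without a filter and 1 to 6 on leaving out single libraries; for cystic EBs against E12.5 ysE (1), 5 in DESeq2, 0 in the groups alone, 4 at an FDR of 5% and 1 to 2 on leaving out single libraries; and for cystic EBs against liver (8), 5 at an FDR of 1%, 4 in limma on log2(RPKM + 1) and 4 to 9 on leaving out single libraries. The cause was not tested, beyond the fewer samples or stricter level of these settings. With the JN libraries alone 7 genes were called against E9.25 ysE, and with the A9 libraries alone 8 against liver.

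With the replicate letter as a block, over the libraries without E12.5 ysE, 3 genes were called for E9.25 ysE against mesoderm (Tex19.1, Rhox5 at edgeR adjusted p = 0.0479 and Mael at 0.0181), 4 for cystic EBs against E9.25 ysE and 8 against liver; without the block the same libraries gave 1, 5 and 8. This library set was added after seeing the data. Whether the letters pair the samples is not known, so the block is only a sensitivity check.

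Without TMM scaling the median of all transcripts moved by up to 0.58 (log2, cystic EBs against E9.25 ysE). The share of calls that were higher went from 44.7% to 29.4% for E9.25 ysE against mesoderm, from 48.8% to 37.7% for E12.5 ysE against liver, from 53.9% to 76.2% for cystic EBs against E9.25 ysE and from 46.4% to 67.5% against E12.5 ysE. With DESeq2's size factors it went from 46.0% to 58.6% for E12.5 against E9.25 ysE. No direction of the 10 genes turned with the scaling among called values.

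For methylation, 0 member genes were called in any setting, with 3 genes left at 10 reads, 2 within 500 bases and 8 within 2 kb; 20 reads left none and gave no value. The H3K4me3 count, in settings added after seeing the data, was 2 within 500 bases, 3 within 2 kb and 0 among peaks of at least the median score. Depth limits the 7 genes at or under 0.429 RPKM in E12.5 ysE, which rest on 0 to 39 reads there, and every single methylation level.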
